A study of Mus musculus with 24 samples.

Results

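The genes described here are 9 genes of the YAP and TEAD mechanosensing pathway, chosen by name (Yap1, Wwtr1, Tead1, Lats2, Ccn1, Ccn2, Ankrd1, Amotl2 and Ajuba), of the 49671 genes in the count table. Their RNA was measured by RNA sequencing in 24 mouse libraries, 4 in each of 6 groups. Primary astrocytes came from brains of C57BL/6J mice by magnetic sorting for the astrocyte surface antigen ACSA-2, were taken at 4 to 8 days (neoAC) or 100 to 140 days of age (AdAC), and were either snap-frozen after sorting (direct) or kept for 7 to 10 days on poly-l-lysine and laminin in AstroMACS medium (CellC). Adult brains for direct isolation were freed of olfactory bulb and cerebellum, whereas neonatal cells came from cerebral tissue without meninges. Dissection and age therefore cannot be told apart. AGES are astrocytes generated from embryonic stem cells. They were made by giving 20 ng/ml BMP4 for 3 to 5 days to neural stem cells (NSCs) seeded on poly-l-ornithine and laminin, whereas the NSCs were grown on gelatin with EGF and FGF, each at 20 ng/ml, and were at passage 50 to 60. Each primary replicate was a separate isolation from 2 pooled mice of mixed sex, with a different dissociation kit for each age, and each NSC or AGES replicate was an independent culture of a single embryonic stem cell line from C57Bl/6 N mice, a substrain other than that of the primary cells, so in every comparison of AGES with primary astrocytes the substrain and the source of the cells cannot be told apart. No gene was altered in any group.

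YAP (encoded by Yap1) and its paralogue TAZ (encoded by Wwtr1) are coactivators that enter the nucleus in spread cells on stiff substrates and bind TEAD transcription factors, of which TEAD1 is a widely expressed member. The Hippo kinases LATS1 and LATS2 phosphorylate YAP and TAZ and keep them in the cytoplasm. Commonly used readouts of the complex are Ccn1 and Ccn2, which encode secreted matricellular proteins, Ankrd1, which encodes an ankyrin repeat protein, and the feedback genes Amotl2 and Lats2, while Ajuba encodes a LIM protein that binds LATS kinases under tension. RNA levels do not show where YAP and TAZ were in the cell.

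The letters that TEAD proteins are known to bind are shown first, in the promoters of the genes. The letters GGAATG, or CATTCC on the opposite strand, were searched on both strands of RefSeq promoters of build GRCm38.p6, each running from 250 bases before to 50 after an annotated start. Of the 9 genes, 7 had a promoter entry (Ccn2 and Tead1 did not), and all 7 held the letters in at least 1 entry, whereas 14.7% of all 32851 promoters of 300 bases did. The 14.7% counts single entries, whereas the 7 are genes, some with more than 1 entry. The genes were chosen as known members of this pathway, so setting the shares side by side is not a test. Ankrd1 and Ajuba held them at 2 places, as did 1.36% of all promoters. Among genes of other lists with an entry, 3 of 11 further YAP targets, 3 of 10 focal adhesion and tension genes, 4 of 8 cofactors, 3 of 12 Hippo cassette genes and 2 of 8 immediate early genes held the letters. Promoters of the 4 target genes with an entry are printed 5′ to 3′ on the gene's strand, with the motif in capitals.
Ccn1 (chr3:145649936-145650235, minus strand): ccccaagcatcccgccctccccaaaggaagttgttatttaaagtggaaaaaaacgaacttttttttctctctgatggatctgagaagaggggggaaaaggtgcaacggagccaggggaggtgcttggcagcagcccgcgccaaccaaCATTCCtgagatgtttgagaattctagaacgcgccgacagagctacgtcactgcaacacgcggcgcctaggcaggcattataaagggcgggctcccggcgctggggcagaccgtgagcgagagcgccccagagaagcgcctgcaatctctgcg
Ankrd1 (chr19:36119795-36120094, minus strand): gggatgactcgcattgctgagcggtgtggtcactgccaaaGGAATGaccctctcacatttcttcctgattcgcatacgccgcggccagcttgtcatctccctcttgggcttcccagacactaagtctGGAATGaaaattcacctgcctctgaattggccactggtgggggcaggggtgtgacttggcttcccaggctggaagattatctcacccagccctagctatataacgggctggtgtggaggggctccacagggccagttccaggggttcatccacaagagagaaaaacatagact
Amotl2 (chr9:102717554-102717853, plus strand): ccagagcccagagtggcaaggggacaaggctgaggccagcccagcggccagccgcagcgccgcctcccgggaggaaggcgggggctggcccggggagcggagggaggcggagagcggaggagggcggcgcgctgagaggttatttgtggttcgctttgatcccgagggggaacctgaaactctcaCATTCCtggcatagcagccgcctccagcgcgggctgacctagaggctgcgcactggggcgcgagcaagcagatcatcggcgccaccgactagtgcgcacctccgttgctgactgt
Ajuba (chr14:54577612-54577911, minus strand): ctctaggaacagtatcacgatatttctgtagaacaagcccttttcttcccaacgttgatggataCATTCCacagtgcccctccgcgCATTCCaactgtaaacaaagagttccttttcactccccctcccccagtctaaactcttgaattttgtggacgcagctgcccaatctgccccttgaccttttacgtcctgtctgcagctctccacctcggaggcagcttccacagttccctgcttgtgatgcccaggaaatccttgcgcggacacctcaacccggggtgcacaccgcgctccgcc

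In the promoters of the regulators the letters occurred once per entry. They are given as 30 bases around the motif in capitals, on the gene's strand.
Yap1: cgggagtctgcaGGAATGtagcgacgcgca
Wwtr1: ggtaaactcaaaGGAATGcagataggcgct
Lats2: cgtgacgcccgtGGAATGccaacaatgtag
Wwtr1 has 2 overlapping entries with the same match, and Lats2 has a further entry (chr14:57734369-57734668, minus strand) in which these letters do not occur. The Lats2 match begins 5 bases into the transcript, whereas the others lie before the start, at base -103 in Ccn1, -210 and -123 in Ankrd1, -65 in Amotl2, -186 and -164 in Ajuba, -141 in Yap1 and -136 in the first Wwtr1 entry. A match describes these letters and is not a measured binding site.

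Levels are CPM, counts scaled to a common library size after TMM normalization, given as mean ± SD with n = 4 libraries. A gene was called higher or lower when its adjusted p in edgeR's quasi-likelihood test was under 0.05, with adjustment over the 19691 genes that passed a filter on low counts. All 9 genes passed it, Ankrd1 only through the group in which it is high. Library totals lay between 27904126 and 37997368 counts. In such bulk samples fewer cells of a type and less RNA per cell cannot be told apart, and the marker sums of the groups differed widely. The 8 astrocyte markers summed to 867 to 1322 CPM in AdAC CellC, 7021 to 8229 in neoAC CellC, 13701 to 14327 in AdAC direct, 19081 to 22473 in neoAC direct, 51718 to 56803 in AGES and 1643 to 2021 in NSCs. Gfap alone averaged 50503 CPM in AGES, whereas Aldh1l1 averaged 14.97 in AGES and 303 in neoAC CellC and Gja1 10.3 and 613. Between these groups 2 of the 8 were higher in AGES and 4 lower, against 34.1% and 40.5% of all genes. The 5 oligodendrocyte markers summed to 22447 to 25356 CPM in AdAC direct and 3601 to 9341 in AdAC CellC, and to at most 142 in any other library. The 7 fibroblast and meningeal markers summed to 1068 to 1550 CPM in AdAC CellC, 450 to 700.2 in neoAC CellC, 205 to 342 in neoAC direct and 85.4 to 102 in AdAC direct. Col1a1 and Col1a2 made up most of the sum in AdAC CellC (813 and 446 CPM). Of the 7, 4 were higher in neoAC CellC than in AdAC CellC and 2, these collagens, lower, against 28.5% and 35.2% of all genes. The 5 mesothelial and epithelial markers reached 90.2 to 201 CPM in AdAC CellC and at most 29.4 elsewhere. The 4 ependymal markers summed to 1156 to 1326 CPM in AdAC direct, 221 to 311 in AdAC CellC, 132 to 194 in neoAC direct and 1337 to 1698 in neoAC CellC. All 4 were lower in adult culture, where 39.2% of all genes were, and higher in neonatal culture, where 34.4% were. The 7 neural stem cell markers summed to 6554 to 8381 CPM in neoAC direct, 2710 to 3452 in NSCs, 592 to 689 in AdAC direct and 1282 to 2667 in the other groups. The part of these cells in the results below was not tested.

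**Figure D1:**
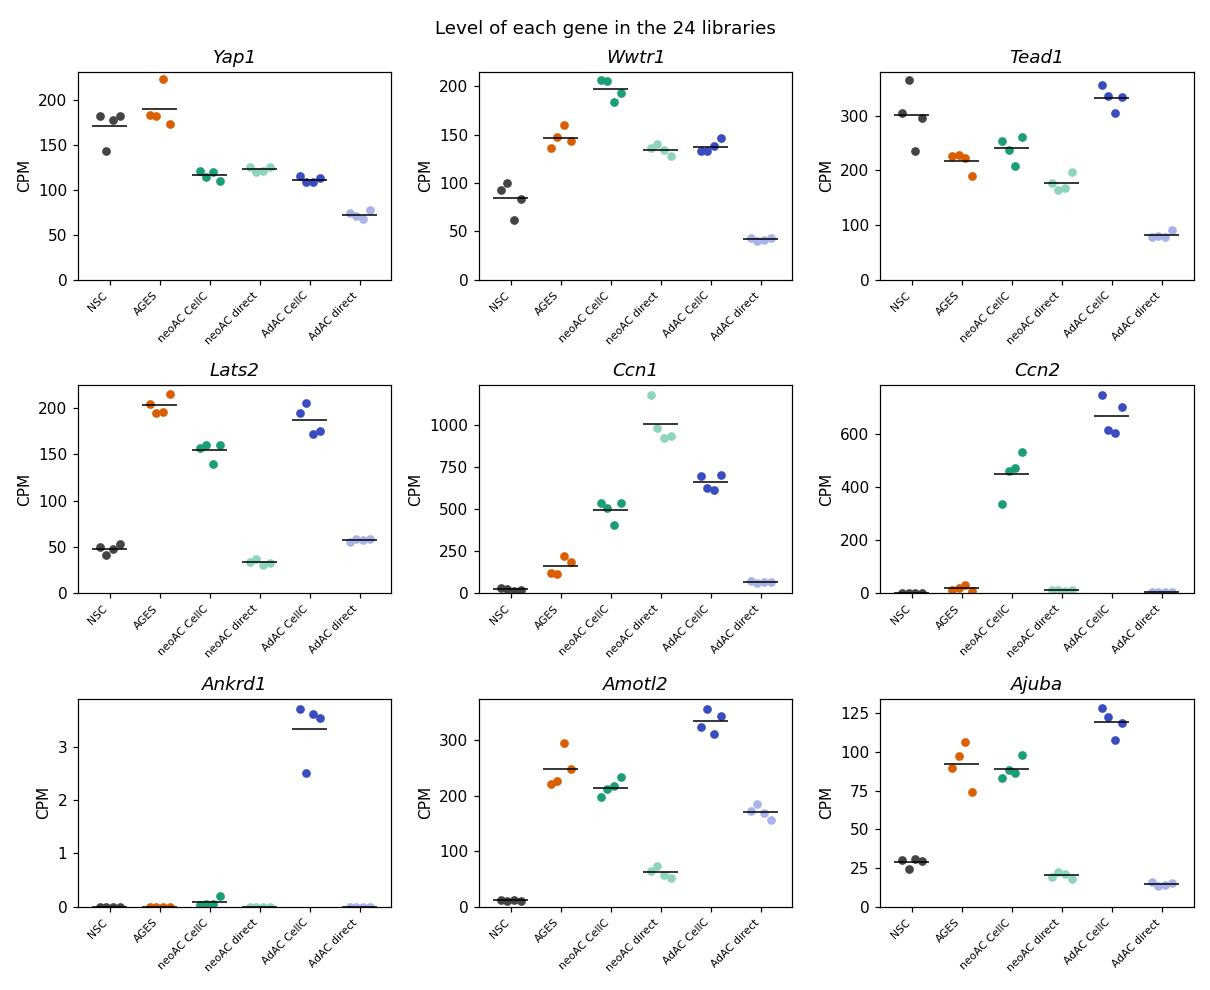
Level of each of the 9 genes in CPM (y axes start at 0 and differ between panels) in the 4 libraries of each group. Points are libraries and lines are group means. Yap1 varied least between groups, Ccn2 was high in both groups of cultured primary astrocytes, and Ankrd1 was above 1 CPM in AdAC CellC only.

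Yap1 (chr9:7931999-8004596, minus strand) had the narrowest range of group means, 2.63-fold from lowest to highest. Its levels were 183, 183, 224 and 173 CPM in the AGES libraries, 182, 143, 178 and 182 in NSCs, 125, 119, 121 and 126 in neoAC direct, 122, 114, 120 and 110 in neoAC CellC, 115, 108, 109 and 113 in AdAC CellC, and 74.7, 70.7, 67.4 and 77.1 in AdAC direct. AGES and NSC libraries thus lay above all primary libraries, neoAC direct, neoAC CellC and AdAC CellC each overlapped their neighbour, and AdAC direct lay below every other group. Yap1 was 1.54-fold higher in AdAC CellC than in AdAC direct (log2 0.62 ± 0.08 SE, adjusted p = 1.48e-07), but did not pass the test between neoAC CellC and neoAC direct (log2 -0.08 ± 0.08, adjusted p = 0.407) or between AGES and NSCs (0.15 ± 0.08, adjusted p = 0.0926). The last difference passed with DESeq2 size factors (0.24, adjusted p = 0.00939) and without AGES replicate 4 (0.20, adjusted p = 0.0413). It was 1.71-fold higher in AGES than in AdAC CellC and 1.64-fold higher than in neoAC CellC. The genes with the most similar pattern over the 6 group means, by root mean square difference of centred log2 CPM among 12577 genes, were Tsn (0.07), Fbxw2 (0.07) and Copz1 (0.09).

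Wwtr1 (chr3:57455649-57575910, minus strand), which encodes TAZ, had its highest levels in cultured neonatal astrocytes. Its levels were 207, 205, 184 and 193 CPM in neoAC CellC, 136, 148, 160.2 and 144 in AGES, 133, 133, 138 and 146 in AdAC CellC, 136, 141, 134 and 128 in neoAC direct, 93.1, 100.2, 62.1 and 83.7 in NSCs, and 42.9, 40.04, 40.8 and 42.7 in AdAC direct. The neoAC CellC libraries lay above all others, AGES, AdAC CellC and neoAC direct overlapped, and AdAC direct was again the lowest. Wwtr1 rose 3.31-fold in adult culture (log2 1.73 ± 0.10, adjusted p = 2.96e-14) and 1.47-fold in neonatal culture (0.55 ± 0.10, adjusted p = 1.6e-05), and was 1.73-fold higher in AGES than in NSCs (adjusted p = 5.54e-08). Per kilobase of exons, Wwtr1 stood at 3.29 ± 0.22 times the level of Yap1 in neoAC CellC, 2.40 ± 0.12 in AdAC CellC, 2.12 ± 0.13 in neoAC direct, 1.499 ± 0.11 in AGES, 1.11 ± 0.04 in AdAC direct and 0.98 ± 0.28 in NSCs. The lowest of the 4 ratios in neoAC CellC, 2.98, was above the highest in AdAC CellC, 2.51. Whether Wwtr1 or Yap1 is higher within a group depends on the exon lengths used. In CPM, without lengths, Wwtr1 was below Yap1 in AGES (147 and 191), NSCs (84.8 and 171) and AdAC direct (41.6 and 72.5), and above it in the other groups.

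Tead1 (chr7:112679318-112906807, plus strand) was highest in AdAC CellC, at 356, 336, 305 and 335 CPM. NSCs had 305, 366, 236 and 297 CPM, neoAC CellC 254, 237, 209 and 261, AGES 227, 228, 223 and 190.1, neoAC direct 177, 164, 168 and 196, and AdAC direct 77.6, 79.4, 77.5 and 91.6. Neighbouring groups in this order overlapped except for AdAC direct, which was below all others. Tead1 rose 4.08-fold in adult culture (log2 2.03 ± 0.11, adjusted p = 7.29e-15) and 1.36-fold in neonatal culture (0.45 ± 0.10, adjusted p = 0.000542), and was 1.39-fold lower in AGES than in NSCs (-0.47 ± 0.10, adjusted p = 0.000269).

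The 4 TEAD genes contributed in different proportions. Per kilobase of exons, Tead1 made up 64.4% ± 2.8 of their summed level in neoAC CellC and 60.7% ± 2.1 in AdAC CellC, against 31.7% ± 5.6 in neoAC direct, 31.8% ± 3.4 in NSCs, 38.1% ± 2.4 in AGES and 47.8% ± 4.8 in AdAC direct. Tead2, known from neural precursors, had the highest mean share in NSCs (63.5% ± 3.2), neoAC direct (50.3% ± 4.4) and AGES (42.6% ± 1.4), and Tead3 held 39.0% ± 4.6 in AdAC direct. The order of Tead1 and Tead2 depends on the exon lengths used. In CPM, without lengths, Tead1 was above Tead2 in NSCs (301 and 211), neoAC direct (176 and 100.3) and AGES (217 and 85.6). Tead2 fell from 100.3 ± 17.3 to 26.1 ± 4.4 CPM in neonatal culture (log2 -1.94 ± 0.11, adjusted p = 6.47e-14) but rose from 7.41 ± 0.50 to 51.9 ± 3.6 CPM in adult culture (2.81 ± 0.12, adjusted p = 7.58e-17), and the test of that difference between ages gave -4.75 ± 0.16 (adjusted p = 1.03e-17). Summed over the 4 genes, the level per kilobase was lowest in AdAC direct (12.6 ± 0.8) and highest in NSCs (69.5 ± 5.6).

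**Figure D2:**
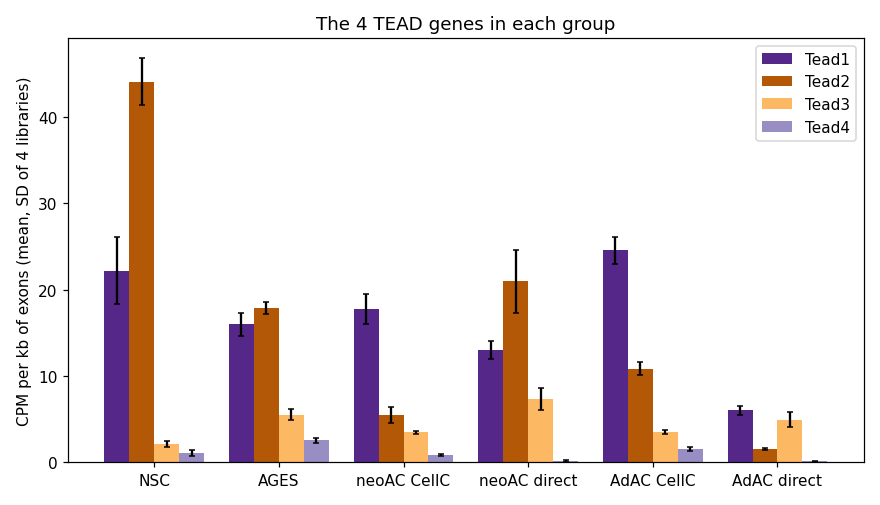
Level of Tead1, Tead2, Tead3 and Tead4 in CPM per kilobase of exons (bars, mean; error bars, SD of 4 libraries) in each group. Tead2 was the tallest bar in NSCs, neoAC direct and AGES, and Tead1 in both groups of cultured primary astrocytes and in AdAC direct.

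Lats2 (chr14:57689662-57758388, minus strand), the kinase gene that is also a feedback target, was high in AGES and in both groups of cultured primary astrocytes. Its levels were 205, 195, 196 and 215 CPM in AGES, 195, 206, 172 and 175 in AdAC CellC, 157, 160.3, 139 and 160.5 in neoAC CellC, 55.6, 58.4, 56.9 and 58.6 in AdAC direct, 50.2, 41.5, 47.3 and 52.8 in NSCs, and 33.3, 37.3, 30.3 and 32.4 in neoAC direct. All 12 libraries of the first 3 groups lay above all 12 of the others. Lats2 rose 3.26-fold in adult culture (log2 1.70 ± 0.08, adjusted p = 7.99e-16) and 4.63-fold in neonatal culture (2.21 ± 0.08, adjusted p = 3.5e-17), and was 4.23-fold higher in AGES than in NSCs (2.08 ± 0.08, adjusted p = 2.17e-17). The substrate, the medium and the time in vitro differed together between these groups and cannot be told apart.

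Ccn2 (chr10:24595442-24598683, plus strand), also known as connective tissue growth factor, had the widest range among the members detected in every group, 470.7-fold between the highest and lowest group means. Its levels were 748, 618, 606 and 703 CPM in AdAC CellC and 337, 460.3, 472 and 535 in neoAC CellC. They were 13.4, 20.6, 32.2 and 8.72 CPM in AGES, 11.1, 12.2, 9.55 and 13.5 in neoAC direct, 4.22, 3.40, 3.33 and 3.07 in AdAC direct, and 1.99, 1.40, 0.86 and 1.44 in NSCs. The cultured primary libraries stood far above all others, and AGES overlapped only neoAC direct. Ccn2 rose 191-fold in adult culture (log2 7.58 ± 0.33, adjusted p = 1.93e-15) and 38.9-fold in neonatal culture (5.28 ± 0.29, adjusted p = 3.27e-13). In AGES it was 13.2-fold above NSCs (3.72 ± 0.32, adjusted p = 4.27e-10), yet 35.6-fold below AdAC CellC (-5.16 ± 0.29, adjusted p = 1.34e-13) and 24.04-fold below neoAC CellC (-4.59 ± 0.28, adjusted p = 7.91e-13). Over 665 exonic bases Ccn2 overlaps the antisense gene Gm15270, which had at most 82 counts in any library, and whether the counting used the strand is not stated. The genes most similar to Ccn2 over the 6 group means were Steap4 (root mean square difference 0.52), Loxl2 (0.90) and Thbs1 (0.96).

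Ccn1 (chr3:145646976-145649981, minus strand), also known as Cyr61 and induced within minutes by many stimuli, did not follow Ccn2. Its levels were 1176, 980.3, 921 and 931 CPM in neoAC direct, 694, 626, 615 and 700.3 in AdAC CellC and 536, 504, 406 and 535 in neoAC CellC. They were 119, 113, 221 and 185 CPM in AGES, 69.8, 61.0, 63.9 and 64.7 in AdAC direct, and 28.04, 24.2, 14.7 and 19.7 in NSCs. No neighbouring groups in this order overlapped. Ccn1 rose 10.2-fold in adult culture (log2 3.35 ± 0.19, adjusted p = 7.09e-14) but was 2.02-fold lower in cultured than in direct neonatal astrocytes (-1.02 ± 0.18, adjusted p = 1.94e-05), and the test of that difference between ages gave -4.36 ± 0.26 (adjusted p = 3.03e-13). It was 7.37-fold higher in AGES than in NSCs (2.88 ± 0.19, adjusted p = 1.34e-12). Its most similar genes were Cebpd (0.74), Chst15 (0.77) and Gap43 (0.77).

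The high Ccn1 level of neoAC direct came with high immediate early genes. The 11 genes of that list summed to 9320 to 13585 CPM in neoAC direct, 1320 to 2065 in AdAC direct, 715 to 804 in AdAC CellC, 443 to 725 in neoAC CellC, 396 to 628 in AGES and 176 to 358 in NSCs. All 11 were higher in neoAC direct than in AdAC direct, with a median log2 difference of 3.06 where the median of all genes was 0 and 35% of them were called higher. In neoAC CellC 10 of the 11 were lower than in neoAC direct (median -3.52, all genes 0.04, 31.3% of them called lower). Fos, a subunit of the AP-1 transcription factor, averaged 4054 CPM in neoAC direct and 53.5 in neoAC CellC, and Nr4a1, an orphan nuclear receptor gene, 1381 and 11.9. Between the adult groups the sums and Ccn1 went opposite ways. AdAC direct had higher immediate early sums than AdAC CellC but less Ccn1 (64.8 against 659 CPM). Single genes of the list were mixed there. Of the 11, 4 were higher and 6 lower in AdAC CellC (median log2 -0.52, all genes 0). Of all genes 38.8% were called higher and 39.2% lower. The 2 ages were dissociated with different kits, and the part of dissociation in the Ccn1 level was not tested. Per kilobase of exons, Ccn1 stood at 125 ± 23 times the level of Ccn2 in neoAC direct, 26.5 ± 2.7 in AdAC direct, 22.1 ± 2.7 in NSCs and 15.1 ± 10.2 in AGES, but at 1.61 ± 0.45 in neoAC CellC and 1.40 ± 0.06 in AdAC CellC.

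**Figure D3:**
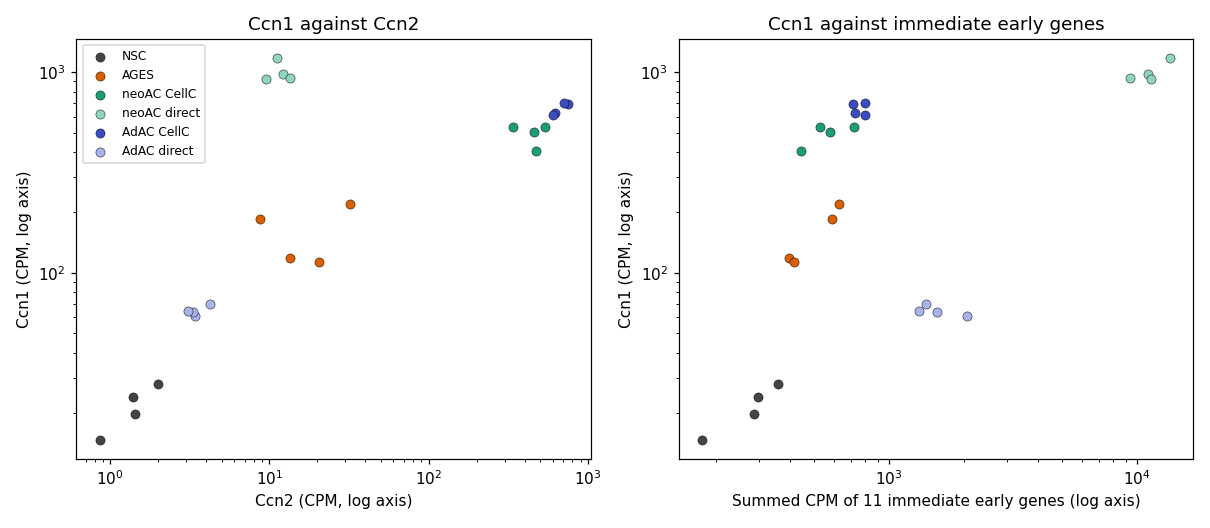
Ccn1 in CPM against Ccn2 in CPM (left) and against the summed CPM of the 11 immediate early genes (right), 1 point per library, log axes. The neoAC direct libraries combine Ccn1 at 921 CPM or more with Ccn2 at 13.5 CPM or less and have the highest immediate early sums.

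Ankrd1 (chr19:36111961-36120099, minus strand) was measured almost entirely in AdAC CellC. It had 121, 86, 136 and 114 counts there, 1, 2, 2 and 7 counts in neoAC CellC, and no count in the other 16 libraries. At 3.34 ± 0.56 CPM it was at least 35.9-fold higher in AdAC CellC than in AdAC direct, taking 3 counts per library as the floor, and at least 33.5-fold higher than in AGES. The ratio of AdAC CellC to neoAC CellC was 39.7 by pooled counts, 457 against 12 (exact 95% interval 22.5 to 77.3, counting error only). The neoAC CellC mean of 0.08 CPM is itself at the floor, so no fold is given for neonatal culture, although edgeR called the gene higher (adjusted p = 0.00459), and the gene did not pass the filter when only the 2 neonatal groups were fitted. AdAC CellC also had the highest sums of the mesothelial and epithelial markers named above. AdAC direct, without any Ankrd1 count, had sums of 26.8 to 29.4 CPM, and the part of such cells was not tested.

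Amotl2 (chr9:102716672-102733418, plus strand), an angiomotin family gene whose protein binds YAP, was the target with the largest fold between AGES and NSCs. Its levels were 324, 357, 310.0 and 344 CPM in AdAC CellC, 220.03, 227, 295 and 248.6 in AGES, 196, 211, 216 and 233 in neoAC CellC, 171, 185, 168 and 156 in AdAC direct, 64.7, 73.4, 57.3 and 50.8 in neoAC direct, and 12.4, 9.29, 12.5 and 10.6 in NSCs. AGES overlapped neoAC CellC, and the other neighbours in this order did not overlap. Amotl2 was 22.1-fold higher in AGES than in NSCs (log2 4.47 ± 0.13, adjusted p = 3.74e-20), 1.96-fold higher in cultured than in direct adult cells (0.97 ± 0.11, adjusted p = 8.94e-09) and 3.48-fold higher in cultured than in direct neonatal cells (1.80 ± 0.11, adjusted p = 3.04e-13). Unlike Ccn1 and Ccn2, it was lower in neoAC direct than in AdAC direct (-1.47 ± 0.11, adjusted p = 8.33e-12).

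Ajuba (chr14:54567472-54577558, minus strand) was likewise highest in AGES and in the cultured primary astrocytes. Its levels were 129, 123, 108 and 118 CPM in AdAC CellC, 89.9, 97.5, 106 and 74.4 in AGES, 83.3, 88.1, 86.5 and 97.9 in neoAC CellC, 30.2, 24.4, 30.9 and 29.5 in NSCs, 19.5, 22.5, 20.9 and 17.6 in neoAC direct, and 15.8, 13.1, 14.0 and 15.2 in AdAC direct. AGES overlapped neoAC CellC, and every library of the first 3 groups was above every library of the others. Ajuba rose 8.24-fold in adult culture (log2 3.04 ± 0.11, adjusted p = 3.67e-18) and 4.42-fold in neonatal culture (2.14 ± 0.10, adjusted p = 4.09e-15), and was 3.20-fold higher in AGES than in NSCs (1.68 ± 0.10, adjusted p = 1.34e-13).

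Ankrd1 is left out of the counts by comparison that follow, since it passed the filter only through AdAC CellC. All 8 other genes rose in adult culture, where 38.8% of all tested genes were called higher and 39.2% lower. In neonatal culture 6 rose, Ccn1 fell and Yap1 did not pass, against 34.4% of all genes higher and 31.3% lower. Between AGES and NSCs 6 were higher, Tead1 was lower and Yap1 did not pass, against 31.7% and 34.0%. The next test asked whether the effect of culture differed between ages. Amotl2 and Lats2 rose more in neonatal than in adult culture (log2 0.83 ± 0.15 and 0.51 ± 0.11). For 6 genes, Ccn1, Ccn2, Ajuba, Yap1, Wwtr1 and Tead1, the neonatal change was below the adult change. Of all genes 33.2% were called in the first direction and 35.4% in the second. These signs compare changes in culture and not levels. For Ankrd1, which had no count in either direct group, edgeR could not estimate the test. The DESeq2 Wald test called Ankrd1 (log2 -5.25). With no count in either direct group, this value only repeats the difference between the cultured groups (-5.25). It therefore cannot show whether the effect of culture differed between ages. Comparisons that share a group share its libraries.

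Between AGES and cultured primary astrocytes the largest differences, Ankrd1 apart, were in the secreted targets Ccn1 and Ccn2. Against AdAC CellC, Yap1 was higher and 5 genes were lower (Ccn1, Ccn2, Amotl2, Ajuba and Tead1), where 31.0% of all genes were called higher and 45.2% lower and the median of all genes was -0.23. Wwtr1 and Lats2 did not pass (0.09 ± 0.09 and 0.12 ± 0.08). Amotl2 (-0.43 ± 0.11) and Ajuba (-0.38 ± 0.10) were only slightly lower, whereas Ccn1 was 4.12-fold lower (-2.04 ± 0.18). Against neoAC CellC, Yap1 and Lats2 were higher and Ccn1, Ccn2 and Wwtr1 were lower, against 34.1% and 40.5% of all genes, and Amotl2, Ajuba and Tead1 did not pass (0.21 ± 0.11, 0.05 ± 0.10 and -0.15 ± 0.10). With library size only, Tead1 (-0.45, adjusted p = 0.000409) and Ajuba (-0.25, adjusted p = 0.024) were called lower, the latter with its sign turned, and Tead1 was also called lower with at least 10 counts in every library (-0.35, adjusted p = 0.00418).

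Age was compared among cultured cells and among direct cells. Of the 8 genes, 6 were lower in neoAC CellC than in AdAC CellC, Wwtr1 was higher (0.52 ± 0.09) and Yap1 did not pass (0.07 ± 0.08), against 28.5% of all genes higher and 35.2% lower. The largest of these differences was Amotl2 (-0.64 ± 0.11, adjusted p = 1.1e-05). Ccn1 (-0.41 ± 0.17, adjusted p = 0.0433) and Ccn2 (-0.57 ± 0.24, adjusted p = 0.0425) were close to the threshold and lost the call under other scalings, filters and the DESeq2 test. Ccn1 also lost it when any 1 of the 8 libraries was left out (adjusted p up to 0.159), and Ccn2 when any but AdAC CellC replicate 3 or neoAC CellC replicate 4 was left out (up to 0.135). Lats2 (-0.28 ± 0.08, adjusted p = 0.00325) lost its call with DESeq2 size factors (-0.17, adjusted p = 0.0707), with no filter and with the DESeq2 Wald test. Among direct cells 6 genes were higher in neonatal astrocytes, and Amotl2 and Lats2 were lower, against 35% and 36.4% of all genes. Ccn1 was 15.5-fold (3.95 ± 0.20), Ccn2 3.32-fold (1.73 ± 0.29) and Wwtr1 3.24-fold (1.69 ± 0.10) higher, and Lats2 was 1.72-fold lower (-0.78 ± 0.08). Markers of several cell types moved with this comparison, with all 5 oligodendrocyte and all 4 ependymal markers lower in neoAC direct and all 7 fibroblast and meningeal, 6 of 7 neural stem cell and 5 of 6 endothelial markers higher, and their part was not tested.

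**Figure D4:**
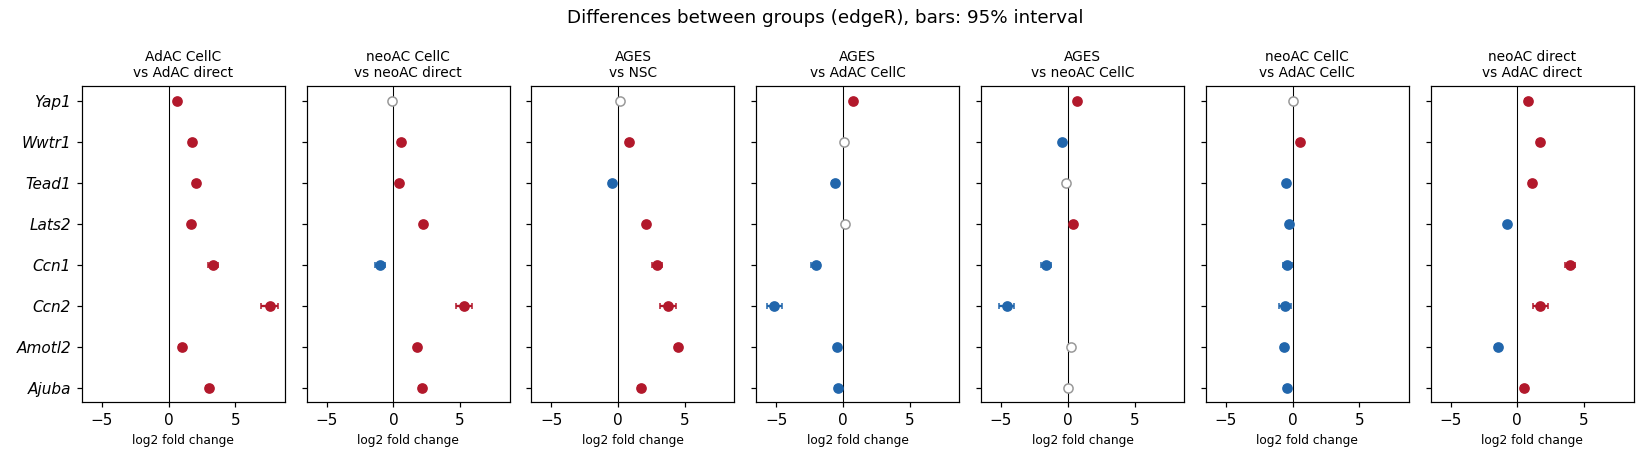
Log2 fold change of 8 of the 9 genes in the 7 comparisons, with 95% intervals. Red and blue points are genes called higher and lower, and open points did not pass. Ankrd1 is left out because most groups had no count. Ccn2 has the largest positive value in both culture comparisons and the largest negative value between AGES and either cultured group.

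Other genes of the pathway give the setting. Of 17 further YAP target genes, 13 rose and 3 fell in adult culture (median log2 1.39), 9 rose and 5 fell in neonatal culture (0.60), and 11 were higher and 2 lower in AGES than in NSCs (1.02), where the median of all genes was at most 0.04. For these and the following lists, the shares of all genes called higher and lower were 38.8% and 39.2% in adult culture, 34.4% and 31.3% in neonatal culture, and 31.7% and 34.0% between AGES and NSCs. Igfbp3 encodes a binding protein of insulin-like growth factors. It rose to 819 CPM in adult culture (8.12 ± 0.27) and 726 in neonatal culture (5.74 ± 0.24). Its mean was higher still in NSCs (1199 CPM) and AGES (1206 CPM). Nuak2, a kinase gene, rose in both cultures (4.91 ± 0.17 and 4.24 ± 0.16). Myof, which encodes a ferlin of the plasma membrane, averaged 268 CPM in AdAC CellC, 45.3 in neoAC CellC and 2.15 in AGES. The whole list was mixed there. Against neoAC CellC, 8 of the 17 were higher in AGES and 6 lower (all genes, 34.1% and 40.5%). Against AdAC CellC, 4 were higher and 7 lower (all genes, 31.0% and 45.2%). Nt5e, an ectoenzyme gene, was lower in AGES than in NSCs (-4.71 ± 0.23). Dock5, a guanine nucleotide exchange factor gene, averaged 184 CPM in AdAC direct and 4.72 in neoAC direct (-5.28 ± 0.16).

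Of 13 focal adhesion and tension genes, 11 rose and 1 fell in adult culture (median 2.10), 9 rose and 2 fell in neonatal culture (0.73), and all 13 were lower in neoAC CellC than in AdAC CellC (median -0.93, all genes -0.08, 35.2% of all genes called lower). Piezo1, which encodes a stretch-activated channel, averaged 231 CPM in AdAC CellC, 38.9 in neoAC CellC and 3.75 in AGES. Actn1, an actin crosslinker gene, averaged 969 CPM in AdAC CellC and 345 in neoAC CellC, and Flna, another one, 2106 and 1010. AGES were higher than NSCs for 9 of the 13 and lower for 2, with Flna at 1504 and 481 CPM. Integrin beta 1 (Itgb1) averaged 1763 CPM in AGES and 496 in neoAC CellC. Against neoAC CellC, 9 of the 13 were higher in AGES and 1 lower (all genes, 34.1% and 40.5%). Against AdAC CellC, 3 were higher and 7 lower (all genes, 31.0% and 45.2%).

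Genes of the Hippo kinase cassette, both kinases and adaptors, and cofactor genes of YAP and TEAD were also counted. Of 14 Hippo kinase cassette genes, 10 rose and 2 fell in adult culture (median 0.52), 8 rose and 5 fell in neonatal culture (0.39), and 4 were higher and 2 lower in AGES than in NSCs (0.02), the last near the 31.7% of all genes called higher. Frmd6, an adaptor gene, rose in neonatal culture (2.06 ± 0.12). Wwc2, an adaptor gene, was 1.95 ± 0.07 higher on the log2 scale in AGES, and Map4k4, a kinase gene, was 1.72 ± 0.08 lower. Of 9 tested cofactor genes out of 10, 7 rose and 2 fell in adult culture and 3 rose and 5 fell in neonatal culture. Vgll3, a TEAD cofactor gene, averaged 92.7 ± 11.3 CPM in AdAC CellC and 23.0 ± 6.7 in neoAC CellC, and under 1 CPM in every other group. Of the 9 cofactor genes, 7 were higher and 1 lower in AGES than in either cultured primary group. Of all genes 34.1% were higher and 40.5% lower against neoAC CellC, and 31.0% and 45.2% against AdAC CellC.

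The remaining CCN genes did not share a pattern. Ccn5 averaged 370.3 ± 70.4 CPM in neoAC CellC, 69.1 ± 16.2 in AdAC CellC and 23.999 ± 20.4 in AGES, and at most 2.05 in the other groups. Ccn4 averaged 78.9 ± 12.1 CPM in AdAC CellC and 13.3 ± 3.4 in neoAC CellC. Ccn3 reached 9.88 ± 0.77 CPM in AdAC CellC, and Ccn6 stayed under 1 CPM in all groups.

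**Figure D5:**
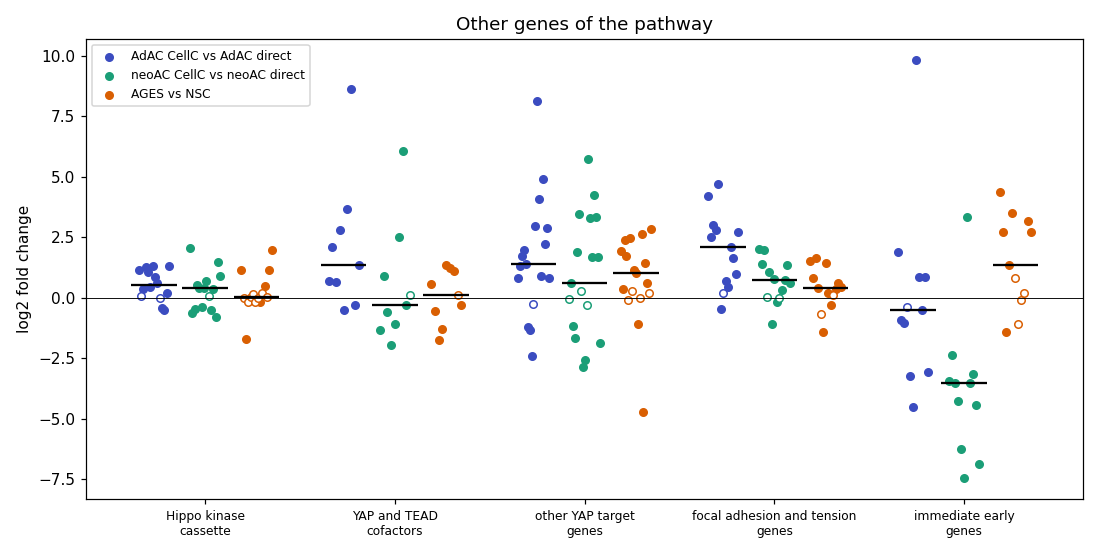
Log2 fold change of the genes of 5 pathway lists in both culture comparisons and between AGES and NSCs. Filled points were called, open points did not pass, and bars are list medians. In neonatal culture 10 of the 11 immediate early genes lie below 0, whereas further YAP targets and focal adhesion genes lie mostly above it in all 3 comparisons.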

How the data were processed

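RNA-seq counts of 24 mouse libraries were grouped by sample title, 4 biological replicates per group. The authors prepared stranded mRNA libraries, aligned reads to GRCm38 with STAR 2.7.3a and counted them on exons with featureCounts and a Gencode annotation. The deposited values are these raw counts, whole numbers without normalization. Strand use in counting was not given in the sources used here. Of the gene identifiers, 49326 of 49671 were matched to Gencode vM21 for symbols, positions and union exon lengths.

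The tests used edgeR 4.0.16 under R 4.3.3: filterByExpr, TMM, and 1 quasi-likelihood fit of the 6 groups, with 7 contrasts and the interaction of culture and age, two-sided, adjusted by Benjamini-Hochberg over 19691 genes at 0.05. SE is the log2 fold change divided by the root of F. The floor of 3 counts covers counting error only. Named list genes are up to 3 per list and comparison with the largest absolute log2 fold change among those called whose higher group averaged 10 CPM or more, and the TEAD and CCN families whole. The genes and lists were chosen with earlier results of these data known. Alternatives were DESeq2 1.42.0 (size factors and Wald test), library size only, no filter, at least 10 counts in every library, an absolute log2 fold change over 1, fits of only the groups compared with and without a replicate block, and each replicate left out.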

Additional observations from a re-analysis of the deposited data

Results flagged for a closer look

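The effect of culture differed between ages for 8 of the 9 genes by edgeR's interaction test, and could not be estimated for Ankrd1. Of all tested genes the test called 33.2% higher and 35.4% lower. On the log2 scale the neonatal minus the adult effect was -4.36 for Ccn1, -2.30 for Ccn2, -1.58 for Tead1, -1.17 for Wwtr1, -0.90 for Ajuba, -0.70 for Yap1, 0.83 for Amotl2 and 0.51 for Lats2. The direction of the effect itself was opposite between ages for Ccn1 alone among the called genes.

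A single library stood apart from the other 3 of its group for 5 of 50 gene and group sets with a value by Dixon's test, which chance alone passes in about 1 of 20 sets. These were Ankrd1 in neoAC CellC replicate 4 (0.19 CPM) and in AdAC CellC replicate 2 (2.51 CPM), Yap1 in NSC replicate 2 (143 CPM), and Tead1 in AGES replicate 4 (190.1 CPM) and in AdAC direct replicate 4 (91.6 CPM).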

How the results depend on the processing

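Counts in this paragraph include Ankrd1. No called log2 fold change of the 9 genes changed sign under any alternative run. The number of genes called was within 1.5 times its value in the text under 55 of 64 alternatives that kept all libraries and in all 72 fits without 1 library. Requiring an absolute log2 fold change over 1 left 3 genes called in AGES vs AdAC CellC, 3 in AGES vs neoAC CellC, 1 in neoAC CellC vs AdAC CellC, 5 in neoAC direct vs AdAC direct and 4 in the interaction. In neoAC CellC vs AdAC CellC, 5 genes in place of 8 were called with DESeq2 size factors, with no filter, with at least 10 counts in every library and with the DESeq2 Wald test. Ccn1 and Ccn2 lost their call in all 4 and also with library size only, where Ccn2 had an adjusted p of 0.083. Lats2 lost its call with DESeq2 size factors, no filter (adjusted p = 0.0657) and the DESeq2 Wald test (adjusted p = 0.0639). These 3 genes kept it in the fits of only the groups compared. There Yap1 passed too (log2 0.16, adjusted p = 0.0184 without and 0.0236 with the replicate block). Yap1 in AGES vs NSC also passed with no filter, with at least 10 counts in every library and with the DESeq2 Wald test. In AGES vs AdAC CellC, Wwtr1 and Lats2 passed in the fits of only these groups, and in AGES vs neoAC CellC, Lats2 lost its call with library size only (adjusted p = 0.327) and Amotl2 passed with no filter (adjusted p = 0.0428) and without AGES replicate 1 (adjusted p = 0.0427). Also there, Tead1 passed under the 10-count filter, and both Tead1 and Ajuba passed when scaled by library size only, where the sign of Ajuba turned. Leaving out single libraries gave 6 to 7 genes called in neoAC CellC vs AdAC CellC. Ankrd1 gave no value with at least 10 counts in every library, since it has none in 16 libraries. No clear pairing by replicate number was seen: the correlations of deviations of libraries with the same number lay between -0.0953 and 0.106. With the replicate block, fitted on only the groups compared, 9 genes were called in adult culture, 7 in neonatal culture, 7 in AGES vs NSC, 9 in AGES vs AdAC CellC, 5 in AGES vs neoAC CellC, 9 in neoAC CellC vs AdAC CellC, 8 in neoAC direct vs AdAC direct and 8 in the interaction, the same numbers as in those fits without the block, and over all genes the block changed the count of calls from 13195 to 13803 in neoAC direct vs AdAC direct and less elsewhere. Scaling by library size alone moved the median over all genes to -0.45 in AGES vs AdAC CellC and to -0.37 in AGES vs neoAC CellC. Depth limits Ankrd1 outside AdAC CellC.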
